A study of Mus musculus with 7 samples.

Results

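Accessibility at 6 genes of the cytotoxic effector program, Gzma, Gzmb, Gzmk, Prf1, Nkg7 and Fasl, was compared between 3 populations of CD4+ T cells taken from mice infected with the lung-migrating, intestinal helminth Nippostrongylus brasiliensis. All regions of the deposited ATAC-seq table that overlapped the GENCODE gene body (release M21, GRCm38/mm10) or the 10 kb on either side of it were taken, which gave 47 of 113820 regions. Gzma had 5 regions, Gzmb 2, Gzmk 14, Prf1 4, Nkg7 7 and Fasl 15. ATAC-seq uses a transposase that inserts adapters into open chromatin, and a region's density of insertions is read as its accessibility.

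The 3 populations were IL-4+ cells of the mediastinal lymph node (LN IL-4+, n = 2 libraries), IL-4+ cells of the lung (lung IL-4+, n = 3) and IFNγ+ cells of the lung (lung IFNγ+, n = 2). All came from C57BL/6 reporter mice that had received 500 L3 larvae under the skin 8 days earlier, and each library was made from 50000 sorted cells. IL-4+ cells were GFP+ cells of the IL-4 4get line and IFNγ+ cells were YFP+ cells of the IFN-gamma GREAT line, so that cytokine and reporter line cannot be told apart. Both reporters mark cells competent to make the cytokine rather than the secreted protein. The sort kept CD3ε+ CD4+ cells and removed cells with CD8, NK1.1, CD11b, CD11c, B220 or Ter119 on their surface. Uninfected animals and reporter-negative cells were not analysed here, and the age and sex of the mice are not given in the sources used here.

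Cytotoxic lymphocytes kill by a pair of textbook routes. In one, granules packed with serine proteases, the granzymes, are released onto a target together with perforin, the pore-forming protein encoded by Prf1 that lets the granzymes in, and Nkg7 is a granule membrane protein needed for efficient degranulation. In the other, Fas ligand, the product of Fasl, engages the death receptor Fas on the target. These genes are best known from NK cells and CD8+ T cells, and they are also used by type 1 and cytotoxic CD4+ T cells. Gzmb encodes the granzyme that cleaves caspases, while Gzma and Gzmk encode tryptases that sit side by side on mouse chromosome 13.

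The libraries held between 14005923 and 91681969 insertions in the 113820 regions, as rebuilt from tied values in the table, and a member region held from 1 to 5740 of them with a median of 91. Only 8 of the 329 member values rested on fewer than 10 insertions. The libraries fell into 2 sets by the interquartile range of the log2 rebuilt insertions per region, which was 1.65 to 1.74 in the first LN IL-4+ library and in replicates 2 and 3 of lung IL-4+ cells, and 2.89 to 3.07 in the other 4 libraries. Both lung IFNγ+ libraries belonged to the wider set, so results are also given within that set, which holds 1 LN IL-4+ and 1 lung IL-4+ library. As a check of the sort, the promoters of Cd3e, Cd4, Cd5 and Thy1 were accessible in all 3 populations (4 of 4 markers). Their summed normalized insertions ran from 156 to 192 in LN IL-4+, from 151 to 210 in lung IL-4+ and from 142 to 145 in lung IFNγ+ libraries. Promoters of the myeloid marker Spi1 and of the epithelial and endothelial markers Epcam and Pecam1 were accessible in all 3 populations as well. Over the libraries they held 8.78 to 16.9, 10.2 to 14.6 and 38.5 to 69.1 normalized insertions, beside 10.7 to 24.4 at Thy1. An open promoter therefore does not by itself mark a cell type here. The 4 B cell markers had no promoter region. Of 5 NK cell markers, Ncr1 and Klra8 had no promoter region, and the sum of normalized insertions over Klrb1c, Klrk1 and Itga2 ran from 23.7 to 24.4 in LN IL-4+, from 36.0 to 38.4 in lung IL-4+ and from 44.5 to 46.5 in lung IFNγ+ libraries. By marker and in the same order, Klrk1 ran from 0.785 to 2.20, from 4.68 to 7.02 and from 11.2 to 11.4. Itga2, the largest part of each sum, ran from 17.8 to 18.5, from 22.8 to 27.5 and from 27.4 to 28.8. Klrb1c overlapped between populations, with 3.72 to 5.12, 3.81 to 7.69 and 5.70 to 6.48. The NK cell sums, though not each marker, rise in the same order as several of the loci below, and their part in the results was not tested. Of the CD8 markers, Cd8a had no promoter region and Cd8b1 held 6.53 to 7.23, 2.91 to 5.51 and 3.89 to 4.05 normalized insertions in the same 3 populations.

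The cytotoxic loci were most open in lung IFNγ+ cells and, at most regions, least open in LN IL-4+ cells. The mean log2 density, which is the log2 of normalized insertions per kilobase, was highest in lung IFNγ+ cells in 42 of the 47 regions (89.4%, against 35.3% of all regions), and lowest in LN IL-4+ cells in 35 (74.5%, against 32.1%). With a mean density of 5 or more counted as accessible, 15 of the 47 were accessible in LN IL-4+ cells (31.9%, against 43.7% of all regions), 19 in lung IL-4+ cells (40.4%, against 43.6%) and 31 in lung IFNγ+ cells (66.0%, against 42.9%). The 31 were all of the member regions accessible in any population, and 13 were accessible in all 3. Since each library pools many cells, a larger share of cells with an open locus and a more open locus in each cell cannot be told apart.

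The number of normalized insertions summed over the regions of a locus gives 1 value per library. At Gzmb these sums were 2.25 and 2.43 in LN IL-4+, 9.55, 11.2 and 11.5 in lung IL-4+ and 14.0 and 16.2 in lung IFNγ+ libraries. At Prf1 they were 9.56 and 7.13, then 6.31, 7.30 and 9.41, then 26.1 and 27.2 in the same order of populations. Gzmb was therefore high in both lung populations, and Prf1 was high in lung IFNγ+ libraries alone, with the LN and lung IL-4+ libraries overlapping. Fasl stepped up from one population to the next, with 35.3 and 50.4, then 61.9, 62.3 and 61.5, then 110 and 123. Gzma followed the same steps with 8.62 and 8.32, then 15.7, 14.6 and 10.5, then 30.5 and 25.3. Gzmk held 61.4 and 79.3, then 81.1, 79.2 and 58.3, then 137 and 117, so its IL-4+ populations overlapped and its IFNγ+ libraries lay above both. At Nkg7 the sums were 66.5 and 72.3, then 83.3, 74.4 and 77.4, then 104 in both IFNγ+ libraries. Much of the Nkg7 sum came from 1 region over the starts of Etfb and Gm45233, and without it the log2 excess of lung IFNγ+ over LN IL-4+ cells grew from 0.58 to 2.01. The log2 difference of lung over LN IL-4+ cells then went from 0.17 to 0.99. For lung IL-4+ minus lung IFNγ+ cells it went from -0.41 to -1.02. The Nkg7 means and folds below include this region.

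**Figure D1:**
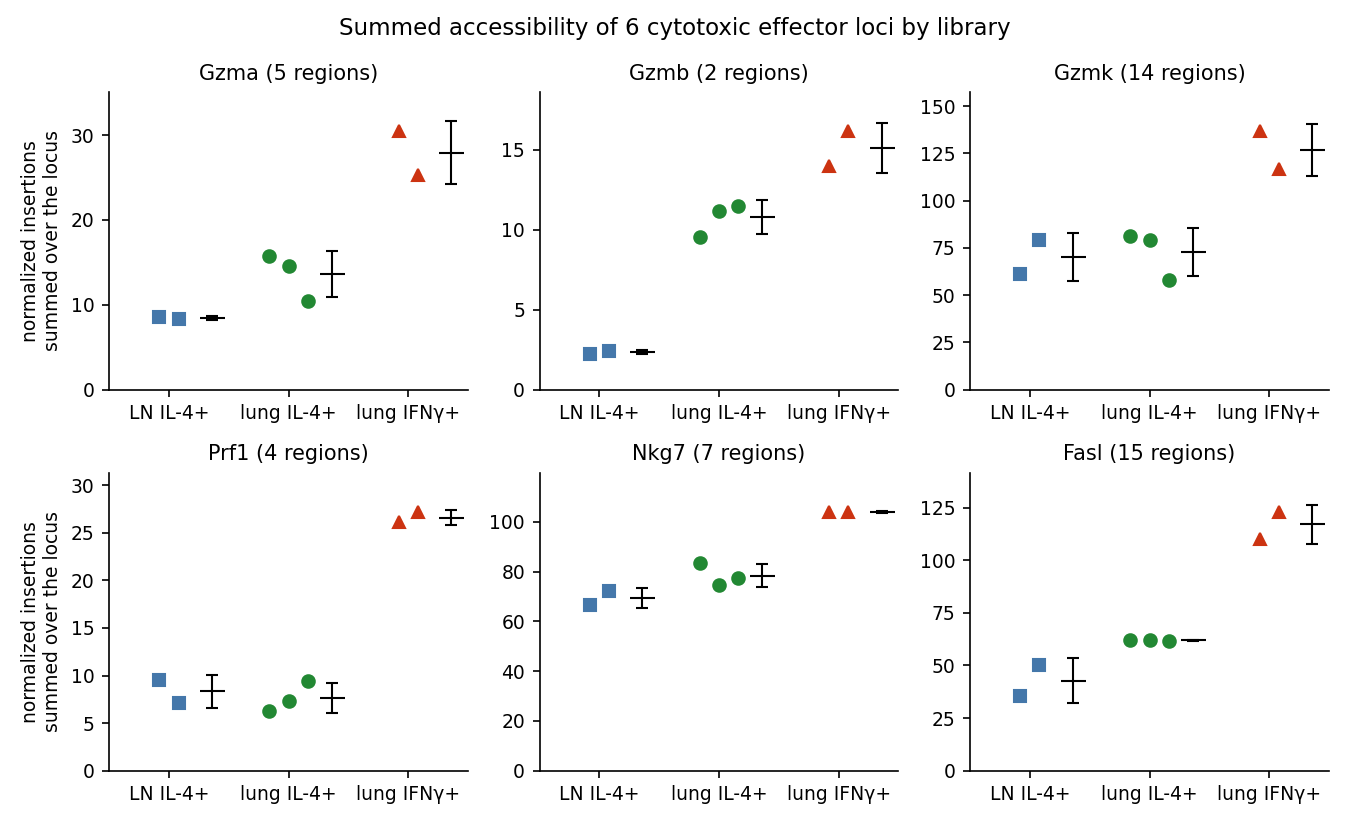
Normalized insertions summed over all regions of each locus (vertical axis, linear from 0), with 1 point per library and the mean ± SD of the population as a black bar beside the points. The lung IFNγ+ libraries lie above the IL-4+ libraries at all 6 loci, and at Gzmb the lung IL-4+ libraries (9.55 to 11.5) lie far above the LN libraries (2.25 and 2.43).

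As means, the sum at Prf1 was 26.6 ± 0.821 for IFNγ+ (SD, n = 2) against 7.67 ± 1.58 for lung IL-4+ cells (SD, n = 3), a 3.52-fold difference. Gzma differed 2.08-fold between the same populations (27.9 ± 3.71 against 13.6 ± 2.72), Fasl 1.88-fold (117 ± 9.38 against 61.9 ± 0.421), Gzmk 1.76-fold (127 ± 13.7 against 72.8 ± 12.6), Gzmb 1.41-fold (15.1 ± 1.56 against 10.8 ± 1.05) and Nkg7 1.33-fold (104 ± 0.484 against 78.3 ± 4.55). In each of these no IFNγ+ library overlapped a lung IL-4+ library, and the exact two-sided permutation test gave p = 0.10, the smallest it can give with 3 libraries against 2. Between lung and LN IL-4+ cells, Gzmb differed 4.59-fold (10.8 ± 1.05 against 2.34 ± 0.130, exact permutation p = 0.10) and Fasl 1.47-fold (61.9 ± 0.421 against 42.8 ± 10.7, exact permutation p = 0.10), while Gzmk (exact permutation p = 0.90) and Prf1 (exact permutation p = 0.700) overlapped. Gzma and Nkg7 did not overlap there and lay 1.58-fold and 1.13-fold higher in lung cells, each with an exact permutation p of 0.20. These p-values are unadjusted. At Fasl the log2 difference between lung and LN IL-4+ cells was 0.56. It was 0.30 without LN IL-4+ replicate 1, 0.81 without LN IL-4+ replicate 2, 0.30 within the wider set and 0.12 with the gene body alone. With 25 kb on either side of the gene, which takes in 8 regions, the log2 difference at Gzmb fell from 2.20 to 0.52 for lung over LN IL-4+ cells and from 2.69 to 1.23 for lung IFNγ+ over LN IL-4+ cells. Lung IFNγ+ cells exceeded LN IL-4+ cells 6.45-fold at Gzmb, 3.28-fold at Gzma, 3.22-fold at Prf1, 2.76-fold at Fasl, 1.81-fold at Gzmk and 1.5-fold at Nkg7, with no overlap and an exact permutation p of 0.33 in each, the smallest possible for 2 against 2. Within the wider set of libraries the log2 difference between lung IFNγ+ and LN IL-4+ sums was 2.63 at Gzmb, 1.90 at Prf1, 1.74 at Gzma, 1.21 at Fasl, 0.68 at Gzmk and 0.52 at Nkg7.

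Single regions were tested with limma over all 113820 regions with Benjamini-Hochberg adjustment, and a call required both an adjusted p below 0.05 and a change of 3-fold or more. Lung IFNγ+ over LN IL-4+ cells gave 12 called member regions of 47 (25.5%), where 2.17% of all regions were called in this direction. This contrast differs in both tissue and reporter. Lung IL-4+ over LN IL-4+ cells gave 2 (4.26%, against 1.05% of all regions), and lung IFNγ+ over lung IL-4+ cells gave 2 (4.26%, against 0.387%). The 16 calls fell on 12 distinct regions, and each of the 6 genes had at least 1. In the reverse directions 0 member regions were called by limma (backgrounds 0.862%, 0.695% and 0.108%), and at an unadjusted p below 0.05 with no fold minimum these counts were 0, 1 and 0, where 8884, 8395 and 7242 of all 113820 regions passed. A voom fit of the rebuilt insertions called 0 there as well. The count of 12 rested on both IFNγ+ libraries and on LN IL-4+ replicate 1, since 2 regions were called without IFNγ+ replicate 1, 3 without IFNγ+ replicate 2 and 7 without LN IL-4+ replicate 1. Calls over all regions fell in the same fits, from 2469 to 92, 166 and 1814. The Gzmb start and the Nkg7 region 1.77 kb from its start kept their calls in each of these fits. The count of 2 against lung IL-4+ cells became 0 without either IFNγ+ library or the second lung IL-4+ library, 1 without the third lung IL-4+ library and 6 without either LN IL-4+ library. Over all regions this count fell from 441 to 0 without either IFNγ+ library, 1 without the second lung IL-4+ library and 40 without the third. A fit without 1 library of a pair assumes that the remaining one varies like the other populations.

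The median log2 difference over the 47 regions was 1.41 for lung IFNγ+ over LN IL-4+ cells, where the median of all regions was -0.03. It was 0.36 between lung and LN IL-4+ cells, again against -0.03, and -0.80 for lung IL-4+ minus lung IFNγ+ cells, against -0.01. Lung IFNγ+ libraries lay wholly above LN IL-4+ libraries in 39 of the 47 regions (83.0%, against 26.5% of all regions) and wholly above lung IL-4+ libraries in 32 (68.1%, against 21.2%). Lung IL-4+ libraries lay wholly above LN IL-4+ libraries in 11 (23.4%, against 13.6%). Of the called regions whose values within the wider set are not given below, lung IFNγ+ exceeded LN IL-4+ cells there by 3.48 at the called Gzma region, 2.72 at the upstream Gzmb region, 2.08 in the Gzmk intron, 3.72 at the Nkg7 start, 2.61 at the Nkg7 region 4.51 kb from its start and 1.58 upstream of Fasl.

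**Figure D2:**
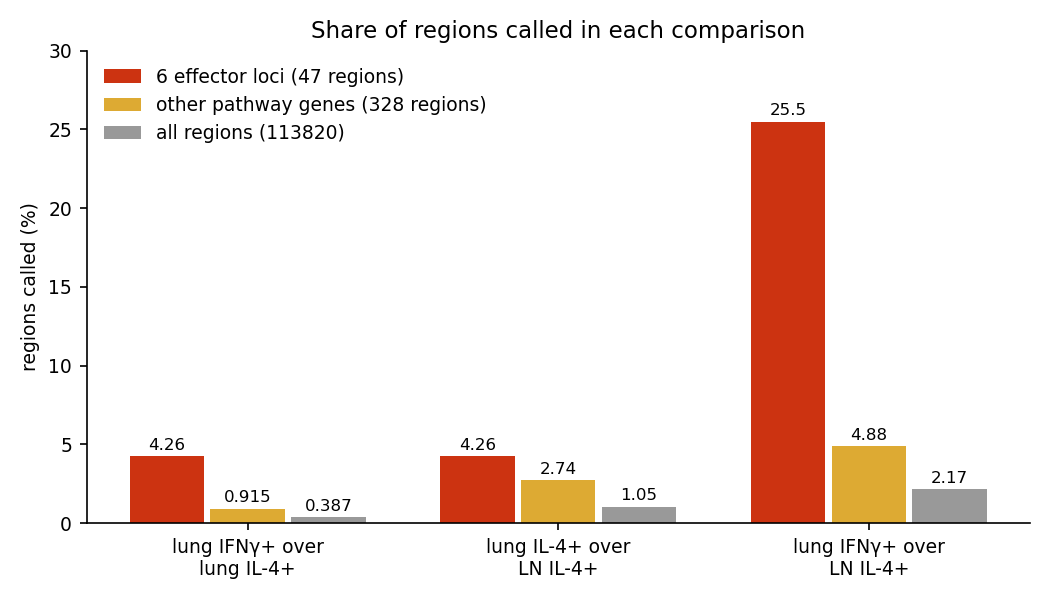
Share of regions called higher (vertical axis, percent, from 0) in each of 3 comparisons, for the 47 regions of the 6 effector loci, for 328 regions of other genes of the pathway, and for all 113820 regions. The effector loci stand at 25.5% for lung IFNγ+ over LN IL-4+ cells, where all regions stand at 2.17%.

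Gzmb (ENSMUSG00000015437.5, chr14:56258838-56262260, minus strand) differed between lymph node and lung in both lung populations. Its start region at chr14:56261913-56262618, which covers the first exon and the bases upstream of it, had log2 densities of 1.44 and 1.58 in LN IL-4+, 3.53, 3.86 and 3.94 in lung IL-4+ and 4.04 and 4.34 in lung IFNγ+ libraries. The lung libraries of both reporters lay above the LN libraries with no overlap. The log2 difference was 2.27 (SE 0.25, limma adjusted p = 0.00334) for lung over LN IL-4+ cells and 2.68 (SE 0.28, limma adjusted p = 0.00165) for lung IFNγ+ over LN IL-4+ cells, which is 4.81-fold and 6.43-fold. Between the 2 lung populations the difference was 0.42 in favour of IFNγ+ cells (95% interval -0.14 to 0.98, limma adjusted p = 0.444). The call of lung IFNγ+ over LN IL-4+ cells held under all 15 other fits, with adjusted p-values from 0.000148 to 0.0490. The call of lung over LN IL-4+ cells was lost under 1 of these fits, the one with the replicate number as a block. Within the wider set of libraries the 2 differences from LN IL-4+ cells were 1.95 and 2.61. The 250 bases ahead of the start are shown because this is the member promoter that was called in both lung populations, with capitals marking matches to the searched motifs (an AP-1, a Runx and a STAT match).

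Gzmb upstream of its start, chr14:56262261-56262510, minus strand: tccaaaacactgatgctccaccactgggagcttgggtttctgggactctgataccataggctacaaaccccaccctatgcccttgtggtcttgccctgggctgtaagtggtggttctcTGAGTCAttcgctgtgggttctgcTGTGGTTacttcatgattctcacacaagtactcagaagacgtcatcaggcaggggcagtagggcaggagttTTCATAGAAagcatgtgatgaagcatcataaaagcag

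The second Gzmb region lay 4.03 kb upstream at chr14:56266083-56266487. Its log2 density was -0.27 and -0.32 in LN IL-4+, 0.86 to 1.81 in lung IL-4+ and 2.24 and 2.56 in lung IFNγ+ libraries. The 3 populations did not overlap, and lung IFNγ+ cells were called over LN IL-4+ cells (log2 difference 2.69, SE 0.56, limma adjusted p = 0.0254). The call was lost under 6 of the 15 other fits (adjusted p up to 0.358), and 1 LN library had 9 rebuilt insertions here. Both Gzmb regions held a Runx and an AP-1 match.

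Gzma (ENSMUSG00000023132.8, chr13:113093825-113100981, minus strand), which encodes granzyme A, differed away from its start. The start region at chr13:113100826-113101275 had log2 densities of 2.05 and 3.27 in LN IL-4+, 2.41 to 3.39 in lung IL-4+ and 3.28 and 3.57 in lung IFNγ+ libraries, so that the populations lay close together. Lung IFNγ+ over LN IL-4+ cells gave a log2 difference of 0.76 (95% interval -0.23 to 1.75, limma adjusted p = 0.398). The called region was chr13:113087247-113088021, which lies 13.3 kb from the start, past the end of Gzma and inside the neighbouring gene Cdc20b. It had log2 densities of 1.11 and 0.10 in LN IL-4+, 0.83, 1.65 and 0.43 in lung IL-4+ and 3.73 and 3.43 in lung IFNγ+ libraries. Here IL-4+ libraries of both tissues overlapped and the IFNγ+ libraries stood clear of them, with a log2 difference of 2.97 from LN IL-4+ cells (SE 0.56, limma adjusted p = 0.0165). That call was lost without either IFNγ+ library and with the replicate number as a block (adjusted p up to 0.264 over the other fits). A region 3.96 kb upstream of the start (chr13:113104731-113105144) reached 4.34 and 3.73 in lung IFNγ+ libraries but spread from 0.65 to 3.34 in lung IL-4+ and from 0.83 to 2.34 in LN IL-4+ libraries, and it was not called.

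Gzmk (ENSMUSG00000042385.14, chr13:113171608-113225908, minus strand) has a long transcript that begins at position 113225908 and shorter ones that begin at 113180897 and 113180921, and the long form encloses Esm1, an endothelial gene. At the far start (chr13:113225795-113226270) the libraries ran from 2.20 to 3.49 in LN IL-4+, from 2.81 to 3.83 in lung IL-4+ and from 3.88 to 4.24 in lung IFNγ+ cells, and no contrast was called. At the inner start (chr13:113180756-113181160) the log2 densities were 0.97 and 0.14 in LN IL-4+, 0.60, 0.47 and 0.58 in lung IL-4+ and 2.98 and 3.32 in lung IFNγ+ libraries. The inner start was thus open in IFNγ+ cells and near the bottom of the scale in IL-4+ cells of both tissues. Lung IFNγ+ cells exceeded lung IL-4+ cells by 2.60 (SE 0.48, limma adjusted p = 0.0438) and LN IL-4+ cells by 2.60 (SE 0.52, limma adjusted p = 0.0226). The first of these calls was lost under 7 of 15 other fits, among them those that left out replicate 2 or 3 of lung IL-4+ cells or either IFNγ+ library (adjusted p from 0.000540 to 0.797), and its difference stayed between 2.01 and 2.81. Within the wider set the differences were 2.55 and 3.01. The bases ahead of the inner start are shown because they separate IFNγ+ cells from lung IL-4+ cells, and they hold a T-box match.

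Gzmk upstream of its inner start, chr13:113180922-113181160, minus strand: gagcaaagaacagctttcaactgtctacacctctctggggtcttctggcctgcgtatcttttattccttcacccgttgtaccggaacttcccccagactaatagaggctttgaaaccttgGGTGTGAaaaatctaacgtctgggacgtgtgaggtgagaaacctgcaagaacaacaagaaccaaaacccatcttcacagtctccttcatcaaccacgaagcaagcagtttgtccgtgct

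The other called Gzmk region was intronic in the long transcript and upstream of the short ones (chr13:113182990-113184162). Its libraries read 2.52 and 2.82 in LN IL-4+, 4.13, 3.81 and 3.42 in lung IL-4+ and 5.09 and 4.73 in lung IFNγ+ cells, a stepwise order with no overlap. Lung IFNγ+ exceeded LN IL-4+ cells by 2.23 (SE 0.29, limma adjusted p = 0.00361), and the lung IL-4+ mean lay 1.11 above the LN mean and 1.12 below the IFNγ+ mean, differences that were not called. Gzmk also held the member region that went furthest in the other direction. An intronic region at chr13:113202701-113203550, nearer to the start of Esm1, had log2 densities of 2.75 and 3.71 in LN IL-4+ against 1.92 to 2.06 in lung IL-4+ libraries, a difference of 1.23 that was not called (limma adjusted p = 0.10).

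Prf1 (ENSMUSG00000037202.6, chr10:61297833-61304680, plus strand) held the member region with the lowest adjusted p between the 2 lung populations, which lay downstream of the gene. This region, chr10:61306137-61306595, is 8.53 kb from the start and overlaps no annotated exon. Its log2 densities were 2.33 and 2.56 in LN IL-4+, 2.42, 2.38 and 2.43 in lung IL-4+ and 4.61 and 4.80 in lung IFNγ+ libraries. The 5 IL-4+ libraries were within a narrow band, and both IFNγ+ libraries stood well above it. Lung IFNγ+ exceeded lung IL-4+ cells by 2.3 (4.92-fold, SE 0.25, limma adjusted p = 0.0100) and LN IL-4+ cells by 2.26 (4.80-fold, SE 0.27, limma adjusted p = 0.00277). Lung and LN IL-4+ cells differed by -0.04, with a 95% interval of -0.58 to 0.51. The call over lung IL-4+ cells was lost under 4 of 15 other fits (leaving out the second lung IL-4+ library or either IFNγ+ library, and the replicate number as a block), with adjusted p-values from 1.36e-05 to 0.424 and differences from 2.1 to 2.39. Within the wider set the differences were 2.29 and 2.15. The middle 300 bases of the region are shown as the sequence where Prf1 accessibility separated IFNγ+ from IL-4+ cells, and they hold a Runx match.

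Prf1 downstream region, chr10:61306216-61306515, plus strand: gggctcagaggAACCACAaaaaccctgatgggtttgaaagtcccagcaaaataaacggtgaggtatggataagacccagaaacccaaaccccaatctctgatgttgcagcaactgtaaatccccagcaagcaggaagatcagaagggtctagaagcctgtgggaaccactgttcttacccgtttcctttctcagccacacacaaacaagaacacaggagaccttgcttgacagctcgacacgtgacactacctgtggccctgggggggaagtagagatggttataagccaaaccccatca

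At the Prf1 start (chr10:61297121-61297882) the order was the same with smaller differences. The libraries read 2.75 and 1.72 in LN IL-4+, 1.81, 2.13 and 2.75 in lung IL-4+ and 3.70 and 3.64 in lung IFNγ+ cells. The difference of 1.44 between the lung populations (95% interval 0.57 to 2.3) was not called (limma adjusted p = 0.145). In an intron (chr10:61301040-61301453) lung IFNγ+ libraries stood at 3.16 and 3.33 and lung IL-4+ libraries between -0.32 and 1.17, a difference of 2.62 that just missed the threshold (limma adjusted p = 0.0533).

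**Figure D3:**
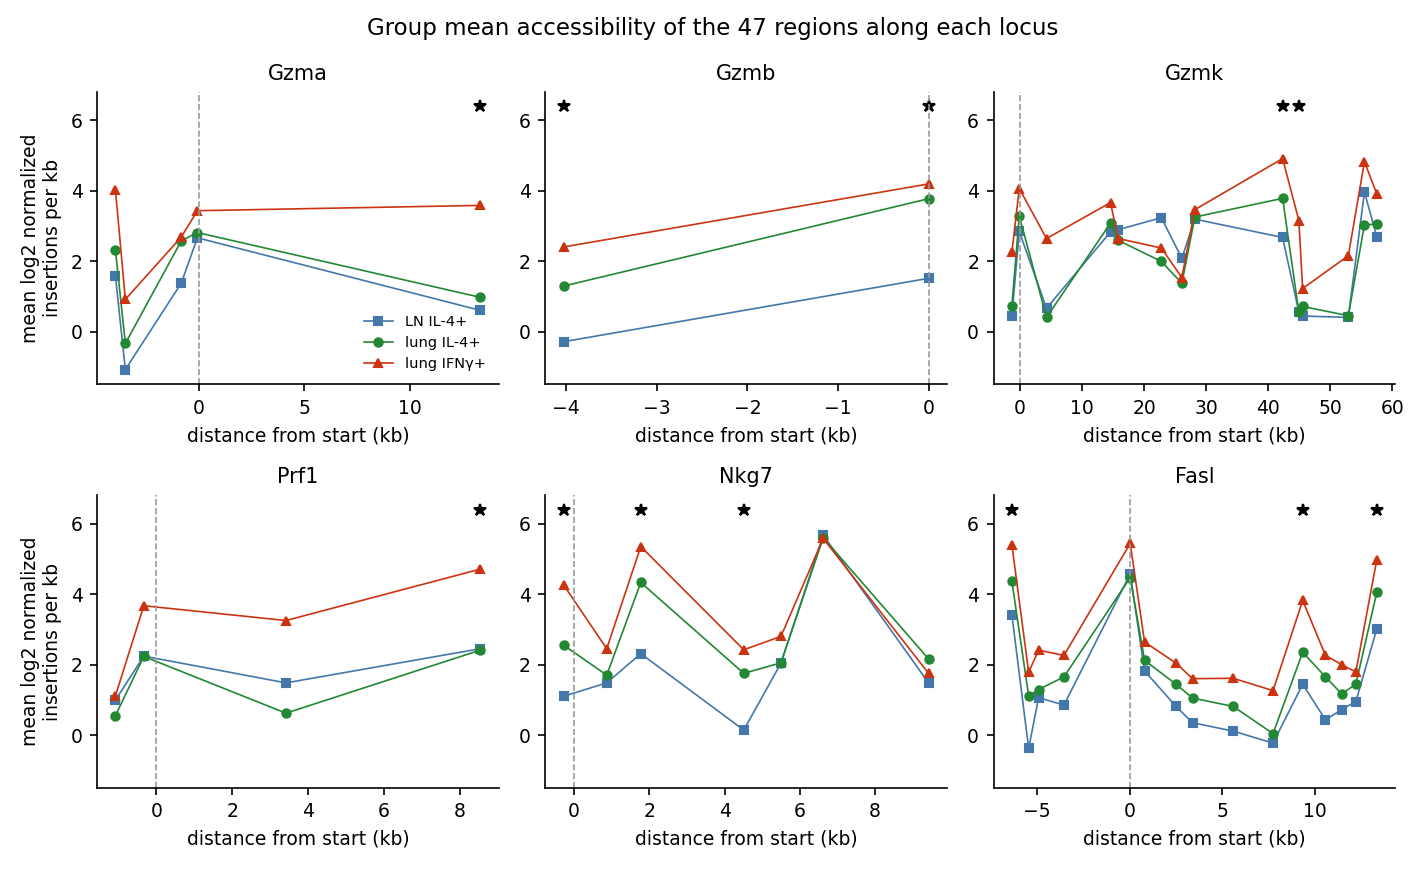
Mean log2 normalized insertions per kb of each population (vertical axis) for every region along the 6 loci, placed by the distance of its centre from the first annotated start in kb (horizontal axis, transcription from left to right, dashed line at the start). Stars mark regions called in at least 1 contrast, and the lines only join the points. The IFNγ+ line runs above the other 2 along Prf1 and Fasl, while at Nkg7 all 3 meet at the region over the Etfb start.

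Nkg7 (ENSMUSG00000004612.9, chr7:43437073-43438249, plus strand) had the largest difference of any member region. At its start (chr7:43436335-43437260) the log2 densities were 1.67 and 0.53 in LN IL-4+, 2.53, 2.51 and 2.59 in lung IL-4+ and 4.31 and 4.20 in lung IFNγ+ libraries. The 3 populations formed 3 separate steps. Lung IFNγ+ exceeded LN IL-4+ cells by 3.16 (8.91-fold, SE 0.39, limma adjusted p = 0.00320), while the steps of 1.45 from LN to lung IL-4+ cells (adjusted p = 0.0603) and 1.71 from lung IL-4+ to IFNγ+ cells (adjusted p = 0.0667) were not called by limma. The next called region began just past the end of the gene (chr7:43438614-43439078, 1.77 kb from the start), and its libraries read 2.15 and 2.48, then 4.62, 4.11 and 4.24, then 5.37 and 5.34. This region was called for lung over LN IL-4+ cells (log2 difference 2.01, SE 0.22, limma adjusted p = 0.00342) and for lung IFNγ+ over LN IL-4+ cells (3.04, SE 0.25, limma adjusted p = 0.000779), and the second call held under all 15 other fits. Both lung populations thus lay above the LN libraries, and IFNγ+ cells were a further 1.03 above lung IL-4+ cells (95% interval 0.53 to 1.53, not called). The call of lung over LN IL-4+ cells was lost under 1 other fit, the one with the replicate number as a block. Within the wider set the 2 differences from LN IL-4+ cells were 2.15 and 2.88. The 250 bases ahead of the start are shown because this region had the largest difference of the 47, and they hold a T-box and a STAT match.

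Nkg7 upstream of its start, chr7:43436823-43437072, plus strand: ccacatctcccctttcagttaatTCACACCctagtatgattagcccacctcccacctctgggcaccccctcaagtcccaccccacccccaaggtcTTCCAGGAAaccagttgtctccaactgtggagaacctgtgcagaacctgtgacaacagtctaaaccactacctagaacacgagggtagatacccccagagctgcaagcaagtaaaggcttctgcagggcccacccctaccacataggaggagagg

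A further called Nkg7 region (chr7:43441383-43441783, 4.51 kb from the start) was nearest to the start of Cldnd2. Its lung IFNγ+ libraries (2.36 and 2.48) exceeded its LN IL-4+ libraries (0.46 and -0.19) by 2.28 (limma adjusted p = 0.0397), a call that was lost under 9 of 15 other fits (adjusted p up to 0.351). The region over the starts of Etfb and Gm45233 (chr7:43443152-43444236), 6.62 kb from the Nkg7 start, was the most open of the 47 in LN IL-4+ cells and served as a neighbour for comparison. It had log2 densities of 5.49 and 5.86 in LN IL-4+, 5.48 to 5.78 in lung IL-4+ and 5.56 and 5.60 in lung IFNγ+ libraries, and all 3 populations overlapped.

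Fasl (ENSMUSG00000000817.10, chr1:161780689-161788495, minus strand) was open at its start in every population, and its called regions flanked the gene. The start region (chr1:161788182-161788746) had log2 densities of 4.30 and 4.85 in LN IL-4+, 4.80, 4.29 and 4.33 in lung IL-4+ and 5.37 and 5.52 in lung IFNγ+ libraries. The IL-4+ libraries of both tissues overlapped, and the IFNγ+ libraries lay 0.97 above lung IL-4+ cells (limma adjusted p = 0.0971) and 0.87 above LN IL-4+ cells (limma adjusted p = 0.0863), neither of which was called. The region 6.37 kb upstream (chr1:161794521-161795199) read 3.00 and 3.82 in LN IL-4+, 4.40, 4.41 and 4.29 in lung IL-4+ and 5.38 and 5.41 in lung IFNγ+ libraries. These were 3 separate steps, with lung IFNγ+ 1.99 above LN IL-4+ cells (3.97-fold, SE 0.26, limma adjusted p = 0.00409) and lung IL-4+ cells 0.96 above LN and 1.03 below IFNγ+ cells without a call. The call was lost without LN IL-4+ replicate 1 or either IFNγ+ library (adjusted p up to 0.0747). The middle 300 bases of this upstream region are shown because this region had the lowest adjusted p of the locus, and they hold a GATA match.

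Fasl upstream region, chr1:161794710-161795009, minus strand: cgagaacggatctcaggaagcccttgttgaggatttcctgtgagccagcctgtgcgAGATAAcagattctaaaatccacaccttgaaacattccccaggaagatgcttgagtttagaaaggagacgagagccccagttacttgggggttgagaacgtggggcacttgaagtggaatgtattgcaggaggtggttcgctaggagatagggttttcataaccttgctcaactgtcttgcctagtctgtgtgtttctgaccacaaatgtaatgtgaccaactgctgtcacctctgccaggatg

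Downstream of Fasl, 2 more regions were called for lung IFNγ+ over LN IL-4+ cells. The one 13.4 kb from the start (chr1:161774732-161775543) read 2.31 and 3.71 in LN IL-4+, 4.01 to 4.08 in lung IL-4+ and 4.88 and 5.05 in lung IFNγ+ libraries (log2 difference 1.96, SE 0.37, limma adjusted p = 0.0173). The one 9.35 kb from the start (chr1:161778771-161779513) read 0.73 and 2.16, then 1.94 to 2.57, then 3.54 and 4.10 (log2 difference 2.38, SE 0.48, limma adjusted p = 0.0236). The 2 LN IL-4+ libraries differed widely in both, and both calls were lost without LN IL-4+ replicate 1, without either IFNγ+ library, with the replicate number as a block and in a fit of those populations alone, and the second also without lung IL-4+ replicate 2. Within the wider set of libraries their differences were 1.26 and 1.67. All 15 Fasl regions had both IFNγ+ libraries above both LN IL-4+ libraries.

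**Figure D4:**
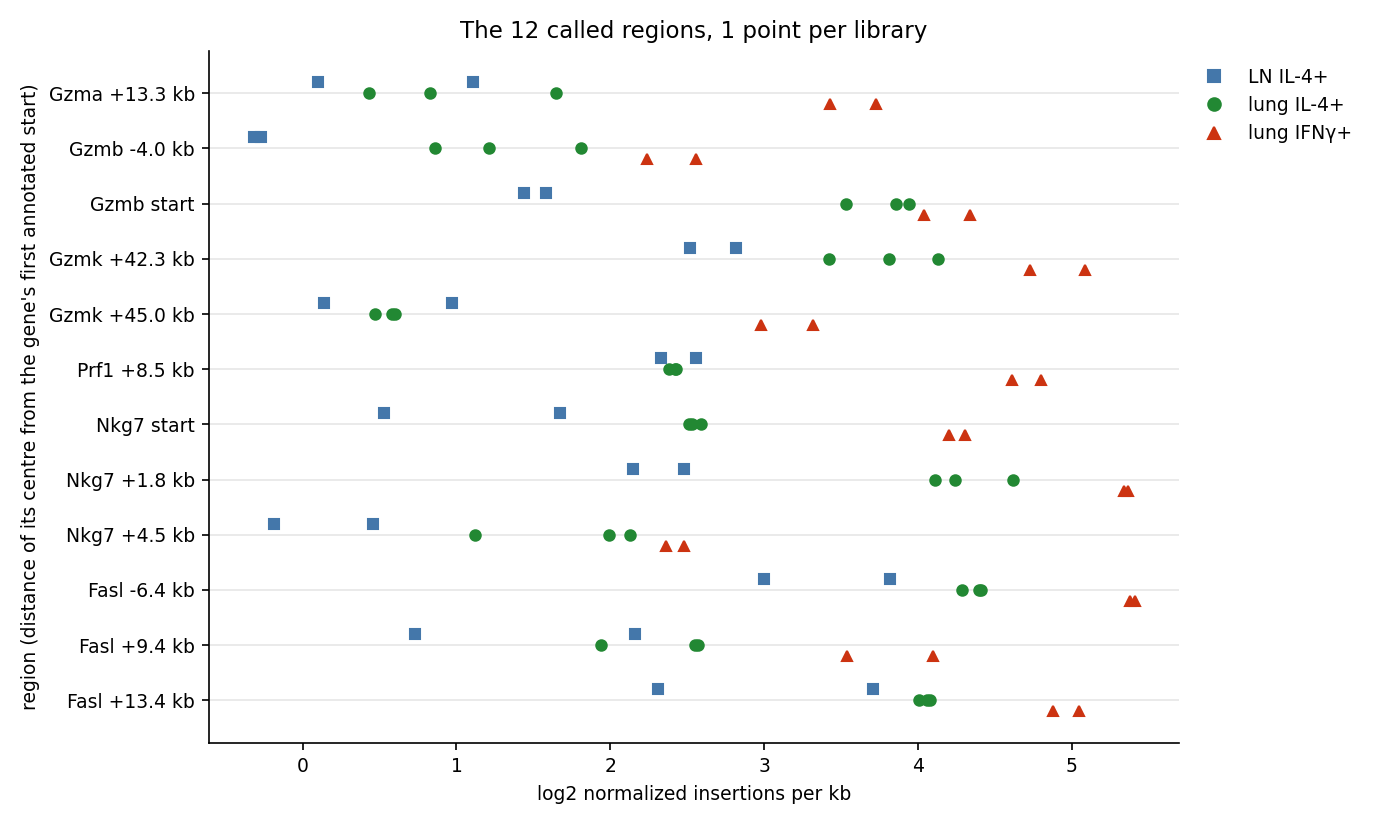
Log2 normalized insertions per kb (horizontal axis) in each library for the 12 called regions (rows, named by gene and by the distance of the region's centre from the first annotated start). In each row the red triangles of lung IFNγ+ cells lie to the right, and the green circles of lung IL-4+ cells lie beside the blue squares of LN IL-4+ cells at Prf1 (+8.5 kb) and beside the red triangles at the Gzmb start.

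The 6 loci differed in profile, although differences between their profiles were not tested. With each locus sum centred on its own mean over the 7 libraries, the closest pair was Gzmk and Nkg7, with a root mean square difference of 0.23 on the log2 scale, and the farthest was Gzmb and Prf1 with 0.99. Among 13295 protein-coding genes with at least 3 regions, the loci most like Prf1 were Dmrta1 (0.15) and Olfr157 (0.18), and those most like Gzmb were Lilr4b (0.29) and Gas7 (0.30). Plek (0.07) and Anxa1 (0.12) were closest to Gzma, Prune2 (0.09) and Edaradd (0.10) to Gzmk, Magohb (0.04) and Ppp2r2c (0.05) to Nkg7, and Tmem37 (0.11) and Adamts18 (0.15) to Fasl. The members' own centred sums had a root mean square size of 1.11 for Gzmb, 0.82 for Prf1, 0.68 for Gzma, 0.58 for Fasl, 0.42 for Gzmk and 0.23 for Nkg7, so that the likeness at Gzmb is loose and a small difference at Nkg7 is easily reached. The Nkg7 sums used here include the region over the starts of Etfb and Gm45233, and likeness without it was not examined. All of these are descriptions over 7 libraries.

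Other genes of the pathway were examined as a list of 35, of which 31 had at least 1 region and which together had 328. Vamp7 was not found by that name in the annotation. For lung IFNγ+ over LN IL-4+ cells 16 of the 328 were called (4.88%, against 2.17% of all regions), at 11 genes. The median log2 difference of the list was 0.24 there. Lung IL-4+ over LN IL-4+ cells gave 9 calls (2.74%, against 1.05% of all regions) at 6 genes. Lung IFNγ+ over lung IL-4+ cells gave 3 (0.915%, against 0.387%), at Gzmm, Tnfsf10 and Hopx. In the reverse directions limma called 0 of the 328 (backgrounds 0.862%, 0.695% and 0.108%). Regulators known for cytotoxic genes gave 9 of the 16 calls and held 113 of the 328 regions. At Tbx21, which encodes the T-box factor T-bet, 3 regions were called for lung IFNγ+ over LN IL-4+ cells and 1 for lung over LN IL-4+ cells. The region called in both lung populations had log2 differences of 2.19 (SE 0.29, limma adjusted p = 0.00598) for lung IL-4+ and 2.43 (SE 0.32, limma adjusted p = 0.00394) for IFNγ+ cells. Those called in IFNγ+ cells alone differed by 2.11 (limma adjusted p = 0.0439) and 2.25 (limma adjusted p = 0.0291). No Tbx21 region was called between the lung populations. Runx3, a Runt factor of cytotoxic lineages, had 3 regions called for lung over LN IL-4+ cells (1.87 to 2.68) and 2 for lung IFNγ+ over LN IL-4+ cells (1.67 and 2.47). Hopx was called in lung IFNγ+ cells over both IL-4+ populations (1.69 over lung and 2.60 over LN IL-4+ cells). Zeb2 and Prdm1 were called in IFNγ+ over LN IL-4+ cells (up to 3.30 and 1.79). A different Zeb2 region was called for lung over LN IL-4+ cells (2.04, limma adjusted p = 0.0149).

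Among genes of the granule itself, Gzmm, which encodes a further granzyme, was called in lung IFNγ+ cells over both lung IL-4+ (2.37, limma adjusted p = 0.0273) and LN IL-4+ cells (2.70, limma adjusted p = 0.00664). The remaining granzyme genes of the chromosome 14 cluster had few regions, and Gzmd, Gzme and Gzmg had 0. Srgn, which encodes the proteoglycan that packs granzymes, and Ctsw, a cathepsin of cytotoxic cells, each had 1 region called in lung IFNγ+ over LN IL-4+ cells (1.83 and 2.00). The summed loci of these 3 genes were not higher in lung IFNγ+ cells, with means in LN IL-4+, then lung IL-4+, then IFNγ+ cells of 166, 154 and 144 at Gzmm, 337, 498 and 278 at Srgn and 50.0, 46.7 and 40.7 at Ctsw. Of the release machinery Rab27a, the GTPase that docks granules, was called in both lung populations over LN IL-4+ cells, and Unc13d, Stx11, Stxbp2 and Lyst had 0 calls. Serpinb9, which encodes the inhibitor that shields cells from their own granzyme B, had 1 region called in both lung populations (1.97, limma adjusted p = 0.00295, and 2.22, limma adjusted p = 0.00174), as Gzmb had. Of the death receptor partners, Tnfsf10, which encodes TRAIL, had a region 3.00 above LN IL-4+ cells in lung IFNγ+ cells (SE 0.33, limma adjusted p = 0.00214). Another Tnfsf10 region was called over LN IL-4+ cells in both lung populations. It differed by 2.33 in lung IL-4+ (limma adjusted p = 0.00617) and by 1.95 in IFNγ+ cells (limma adjusted p = 0.0127). Fas, Fadd and Tnf had 0 calls.

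Motifs were searched as exact letters on both strands in the central 401 bases of each region, with GGTGTGA standing for the T-box motif, AACCACA for Runx, TGANTCA for AP-1, TGGAAAA for NFAT, TTCNNNGAA for STAT and AGATAA for GATA. A Runx match was found in 10 of the 47 member regions (21.3%, against 13.6% of all regions) and in 5 of the 12 called ones. A T-box match was found in 6 (12.8%, against 6.39%), of which 3 were called regions, at the Nkg7 start, 4.51 kb after it and at the inner Gzmk start. AP-1 was found in 9 (19.1%, against 16.0%) and GATA in 11 (23.4%, against 19.8%), of which 4 and 2 were called regions. STAT was found in 7 (14.9%, against 12.3%) and NFAT in 2 (4.26%, against 9.58%), of which 3 and 0 were called regions. The 6 loci hold too few regions for these shares to set them apart, and a match is not a bound site.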

How the data were processed

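Sequencing reads were processed by the authors. Adapters were trimmed with skewer, reads were mapped to GRCm38/mm10 with Bowtie2 2.3.2, and duplicates were marked. Peak summits were called in each replicate with MACS2 2.1.1 and regions around them merged across replicates. Insertions per region were normalized by the authors, whose methods name voom in limma 3.38.3, and the deposited values are log2 normalized insertions per kilobase. The deposited log2 values of all 7 libraries were used, and each library's insertions summed to between 980681 and 980715 on the linear scale. The 25th to 99th percentiles of log2 insertions per region lay within 0.04 of each other in all libraries, as quantile normalization would make them. That step is not given in the sources used here, and every density is then relative to a distribution that all libraries share. Insertion counts were rebuilt here from the rank of tied values and are lower bounds. Depth therefore covers counting error only.

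The full table of 113820 regions was fitted with limma 3.58.1 in R 4.3.3 (lmFit, eBayes with a variance trend, 1 mean per population), and the 3 contrasts were adjusted by the Benjamini-Hochberg method over all regions. Locus sums were compared with exact two-sided permutation tests. The study names mice of a single experiment as replicates, the labels do not, so p-values measure only the spread between these libraries, which may be technical. The main fit did not pair libraries by replicate number, and the labels do not say whether libraries with the same number share a mouse. Sequences and annotation were RefSeq GRCm38.p6 and GENCODE M21. The 6 genes and all gene lists were chosen with earlier results of these data known. Named were the start region of each gene and every called region, and the other regions given were picked with their values in view. Alternatives were other fits, scalings, filters, flanks and thresholds, and each library left out in turn, and 1 was added after seeing the data (leaving out regions at starts of other genes). The scripts were tested on simulated data.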

Additional observations from a re-analysis of the deposited data

How the results depend on the processing

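The 16 calls kept their direction under all 15 other fits. The count of called member regions for lung IFNγ+ over lung IL-4+ cells, 2 in the report, was 6 in a fit of the 2 populations alone, 6 with the set of wide or narrow libraries as a covariate, 5 on log2(density + 1), 1 among the 31 regions with a mean density of at least 5, 7 with array weights and 6 at an adjusted p below 0.1. With 1 library left out it ran from 0 to 6, and the counts for lung over LN IL-4+ cells and for lung IFNγ+ over LN IL-4+ cells ran from 2 to 3 and from 2 to 14. A fit with the replicate block called 0, 0 and 6 member regions in the same order of comparisons. Deviations of libraries with the same number correlated at -0.54 and -0.30 between LN and lung IL-4+ cells and at 0.06 or below elsewhere. This cannot decide whether those libraries were paired. The LN and lung IL-4+ libraries of the same number lie in opposite sets of wide and narrow libraries. With 2 LN IL-4+ libraries, each deviation also mirrors the other. No other count of called member regions moved by more than 1.5 times. At a density minimum of 10, 4 member regions were accessible in LN IL-4+ cells, 8 in lung IL-4+ cells and 19 in lung IFNγ+ cells. The voom fit moved the median log2 difference of all regions to 0.43 for lung IL-4+ minus IFNγ+ cells and to -0.25 for lung IFNγ+ minus LN IL-4+ cells, and the values it gives are relative to these.

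Some small differences between lung and LN IL-4+ cells changed sign, and none of them was called. For Gzmk sums, 0.05 became -0.04 as a mean of log2 values and ran from -0.14 to 0.23 with 1 library left out, and for Prf1 sums from -0.34 to 0.09. Under voom the Prf1 start was at 0.22, its downstream region at 0.03 and the inner Gzmk start at 0.96. The Gzma start was at -0.06 with array weights, and for lung IL-4+ minus IFNγ+ cells it was at 0.06 with the library set as a covariate. With 1 library left out, the Prf1 start ran from -0.51 to 0.51, its downstream region from -0.15 to 0.08, the Gzma start from -0.46 to 0.76, the downstream Gzma region from -0.14 to 0.87, the inner Gzmk start from -0.42 to 0.41, the far Gzmk start from -0.21 to 1.08 and the Fasl start from -0.37 to 0.17. The cause was not tested. The flank also set the size of some sums. With the gene body alone, lung IFNγ+ over LN IL-4+ cells gave 0.76 at Gzma and 2.20 at Nkg7, and with 25 kb on either side it gave 1.23 at Gzmb and 0.87 at Fasl. Depth limits the 8 member values with fewer than 10 rebuilt insertions.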
